A study of Mus musculus with 16 samples.

Results

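The genes described here are 8 members of the tumour necrosis factor (TNF), interleukin-1 (IL-1) and transforming growth factor β families: the ligands Tnf, Il1a, Il1b, Il18 and Tgfb1, the TNF receptors Tnfrsf1a and Tnfrsf1b, and the IL-1 receptor antagonist Il1rn. They were chosen by name, and all 11 probes that carry their RefSeq accessions were taken, out of 41174 probes for 18749 named genes. RNA of the corpus callosum, the white matter tract that joins the hemispheres, was measured on 16 single-colour Agilent whole mouse genome arrays. The mice were male C57BL/6, and the study's methods give an age of 7 to 8 weeks and state 3 to 6 mice per condition. Cuprizone (CPZ), a copper chelator that kills oligodendrocytes when fed, was mixed into powdered standard chow at 0.2 to 0.4% according to the labels. The groups were untreated mice (n = 3), CPZ for 2 weeks (n = 3), CPZ for 4 weeks (n = 4) and CPZ for 4 weeks followed by regular diet (n = 6). By the study's own description 3 of the regular diet arrays were taken after 2 days and 3 after 14 days. The labels do not say which array belongs to which time, so the 6 arrays were kept as 1 group, and time on regular diet cannot be told apart from other differences among them. The untreated mice were matched in age and sex to the 4-week group, so they are not the age controls of the other groups.

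TNF is made mainly by microglia and macrophages in the brain and acts through TNF receptor 1 (Tnfrsf1a), which most cells carry and which can lead to inflammation or cell death, and TNF receptor 2 (Tnfrsf1b), found on fewer cell types and tied to survival and repair of oligodendrocyte precursors. IL-1α and IL-1β bind the same receptor and IL-1ra blocks it, while IL-1β and IL-18 are made as inactive precursors that caspase-1 cuts inside inflammasomes. TGF-β1 is stored in a latent form, dampens inflammation and maintains microglial identity.

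The oligodendrocyte markers of white matter were bright before CPZ: 8 of 8 oligodendrocyte markers (Mbp among them) were on the array, and their summed level, in log2 units relative to the 75th percentile of each array, lay between 9.25 and 10.35 in untreated mice, 5.00 and 8.06 at 2 weeks, 5.43 and 8.54 at 4 weeks, and 6.61 and 10.26 on regular diet. In bulk tissue, fewer cells of a type and less RNA per cell cannot be told apart. Regular diet arrays numbered 1 and 2 stood apart. They correlated at 0.988 with each other and at 0.938 to 0.960 with the other 4 arrays of the group, which correlated at 0.966 to 0.990 among themselves. Their summed microglia and macrophage markers (10 of 11 listed genes on the array, Aif1 and Itgam among them) were at 9.12 and 9.39, against 6.18 to 6.68 on the other 4. Differences from untreated on regular diet that were tested for a member, or for a pathway gene named in that comparison, are therefore also given without them. That choice was made after the levels were seen. The scanner files and the processed table assign 14 of the 16 arrays to different samples, 13 of them to different groups. Arrays were assigned through the processed table, and under the other assignment no member and no other gene passed the test in any comparison.

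RefSeq promoter sequences (GRCm38.p6, 250 bases before to 50 bases after the start) were found for all 8 genes. TATAAA on the gene's own strand, starting between 35 and 25 bases before the start, was present for 3 of the 8, Tnf, Il1a and Il1b, and in 1.75% of all 32851 promoters in the table. That window was chosen with these promoters in view. The first 3 sequences are shown because they carry it and the fourth because 1 of the 2 probes of Tnfrsf1b was, with Il1b, called on regular diet. Capitals mark TATAAA and, in Il1a, a match to the AP-1 motif TGANTCA.
Il1b, chr2:129371090-129371389, minus strand: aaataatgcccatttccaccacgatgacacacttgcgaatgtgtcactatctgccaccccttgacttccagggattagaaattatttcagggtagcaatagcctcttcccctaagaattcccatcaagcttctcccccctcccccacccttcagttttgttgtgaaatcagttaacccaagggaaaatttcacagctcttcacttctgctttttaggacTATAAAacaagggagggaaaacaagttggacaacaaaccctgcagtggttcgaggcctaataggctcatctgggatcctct
Tnf, chr17:35201958-35202257, minus strand: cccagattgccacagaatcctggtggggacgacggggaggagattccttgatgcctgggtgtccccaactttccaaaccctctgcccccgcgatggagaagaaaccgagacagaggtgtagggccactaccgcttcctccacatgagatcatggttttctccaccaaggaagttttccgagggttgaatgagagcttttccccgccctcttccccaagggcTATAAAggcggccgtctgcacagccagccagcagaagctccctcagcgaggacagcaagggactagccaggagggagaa
Il1a, chr2:129309923-129310222, minus strand: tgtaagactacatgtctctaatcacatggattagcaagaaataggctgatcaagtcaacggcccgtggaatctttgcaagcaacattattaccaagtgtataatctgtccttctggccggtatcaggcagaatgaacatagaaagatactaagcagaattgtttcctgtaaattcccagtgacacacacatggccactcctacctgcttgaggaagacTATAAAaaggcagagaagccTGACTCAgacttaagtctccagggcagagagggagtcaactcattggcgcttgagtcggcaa
Tnfrsf1b, chr4:145246821-145247120, minus strand: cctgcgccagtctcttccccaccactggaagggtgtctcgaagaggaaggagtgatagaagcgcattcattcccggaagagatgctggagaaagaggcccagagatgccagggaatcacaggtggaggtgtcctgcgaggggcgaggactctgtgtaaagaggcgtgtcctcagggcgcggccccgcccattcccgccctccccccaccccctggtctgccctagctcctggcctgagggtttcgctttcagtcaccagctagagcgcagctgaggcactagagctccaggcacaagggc
On either strand and at any position, TATAAA was found for 5 of the 8 genes (Il18 and 1 promoter of Il1rn besides the 3 above) and in 13.6% of all promoters, TGANTCA in 7.8% and the 10-base κB consensus in 4.5%. The κB consensus matched none of the 10 promoters of the 8 genes, and TGANTCA also matched 1 of the 3 promoters of Il1rn. These are matches of letters in a window and not measured binding.

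Of the 8 members, 5 had a probe bright enough to be tested and 3 (Tnf, Il1a and Il1rn) did not. A probe was tested when some group had it well above background throughout, judged on each array by the scanner software's flag on at least 50% of the probe's spots. This gave 5 member probes in the comparisons among untreated and CPZ mice and 6 in those with regular diet. A change was called at an adjusted p under 0.05 and at least 2-fold. At 2 weeks of CPZ, 1 tested member of 5 was called (Il1b, higher), where 0.193% of all tested probes were called. At 4 weeks none was called, with 0.164% of all probes called, and none between 4 and 2 weeks, with 0.0109%. On regular diet 2 members were called against untreated (Il1b and Tnfrsf1b, higher), with 0.799% of all probes called, and none against 4 weeks of CPZ, with 0.0036%. These shares moved when 1 array was left out. The called probes ran from 8 (without untreated replicate 3 or 4-week replicate 4) to 75 (without 4-week replicate 1) in place of 53 at 2 weeks. At 4 weeks they ran from 0 (without 2-week replicate 3 or 4-week replicate 1, 3 or 4) to 186 (without 4-week replicate 2) in place of 45, and between 4 and 2 weeks from 0 to 52 (without untreated replicate 1) in place of 3. On regular diet against untreated they ran from 5 (without untreated replicate 3) to 240 in place of 222, with 66 without untreated replicate 2 and 106 without untreated replicate 1. Without 4-week replicate 1 or 3, or untreated replicate 1, regular diet against 4 weeks gave 1550, 348 and 1305 called probes in place of 1, and still no member. Where none was called, 4 of 5 member probes had an unadjusted p under 0.05 at 4 weeks, 0 of 5 between 4 and 2 weeks and 1 of 6 on regular diet against 4 weeks, by limma, where 10.1, 10.6 and 24.7% of all tested probes did. All comparisons against untreated share the same 3 arrays.

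**Figure D1:**
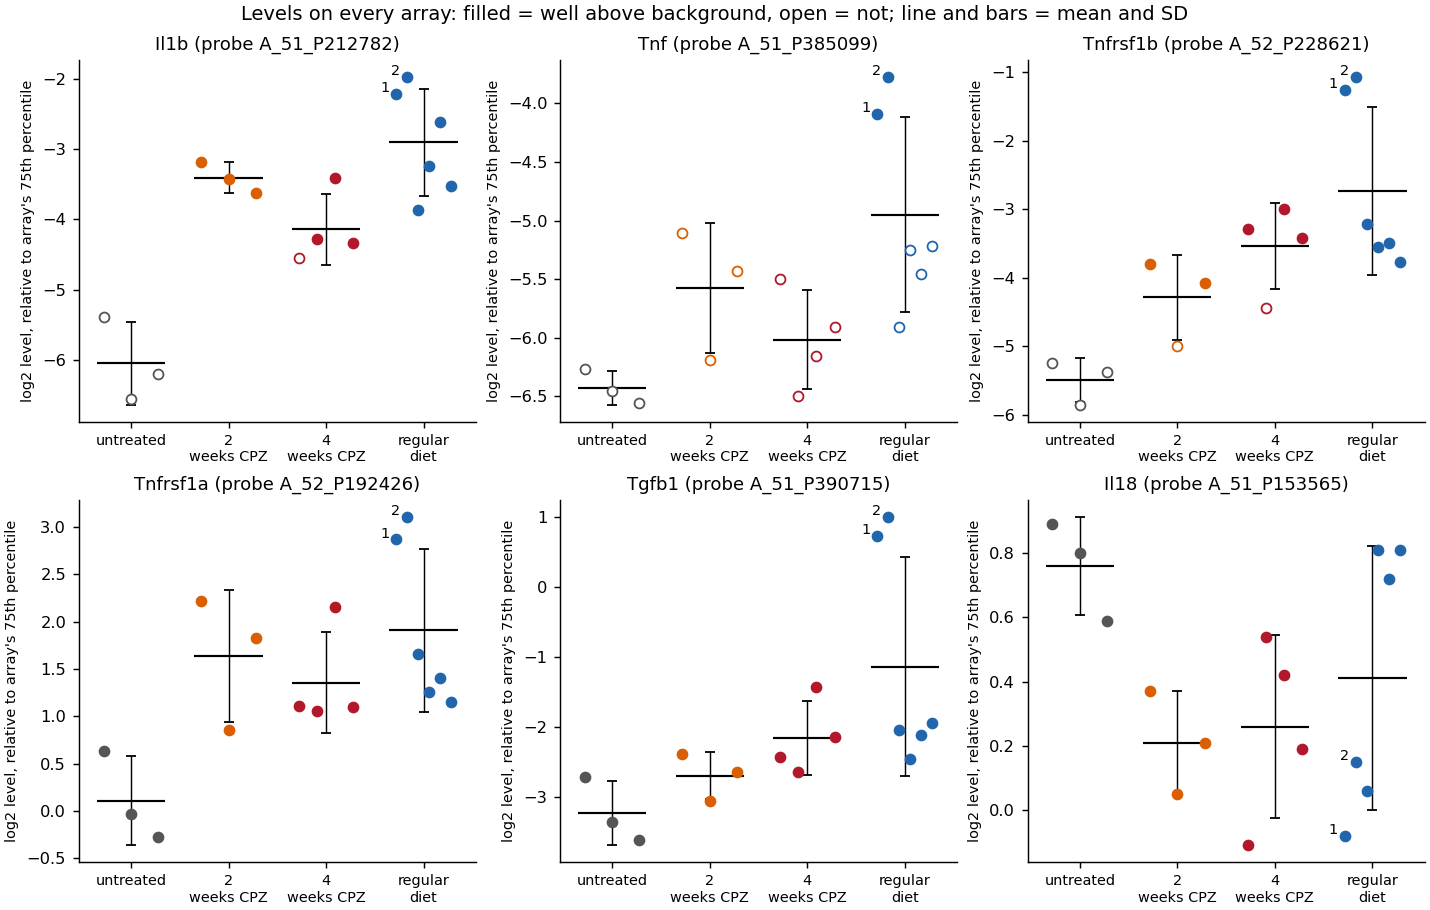
Log2 level of 6 member probes on each of the 16 arrays, relative to the array's 75th percentile, by group (filled points are well above background and open points are not, with the mean as a line and 1 SD as bars). Il1b was not above background on any of the 3 untreated arrays and was above it on all 3 arrays at 2 weeks, and regular diet arrays 1 and 2, marked by their numbers, were the highest of that group in 5 of the 6 panels.

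Il1b, the secreted form of IL-1 and the main product of the inflammasome, was the member that moved most clearly. On its probe (A_51_P212782) the log2 levels were -5.39, -6.55 and -6.19 in untreated mice, none of them well above background. At 2 weeks of CPZ they were -3.18, -3.42 and -3.62. At 4 weeks they were -4.54, -4.27, -3.41 and -4.34, and on regular diet they ranged from -3.87 through a median of -2.92 to -1.97. No array of a CPZ or regular diet group overlapped the untreated arrays. The level at 2 weeks was 2.64 ± 0.36 higher than in untreated mice (SE, log2, limma adjusted p = 0.0357), and on regular diet it was 3.14 ± 0.40 higher (limma adjusted p = 0.00497). Because the untreated arrays give only a bound, the fold between group means is stated as at least 2.42-fold at 2 weeks and at least 3.43-fold on regular diet. These bounds make no allowance for sampling error. Among untreated and CPZ mice the probe entered the test through the 2-week group, the one group there with every array above background, and with no filter on dim probes it was still called at 2 weeks (limma adjusted p = 0.0445). At 4 weeks the difference was 1.91 ± 0.34 (limma adjusted p = 0.0739). Its bound was 1.46-fold, which is not strict, because 4-week replicate 1 was itself at background. Every array of the first group above every array of the second was seen for 8.33% of all tested probes at 2 weeks, 5.28% at 4 weeks, 5.5% between 4 and 2 weeks, 4.89% on regular diet against untreated and 4.21% on regular diet against 4 weeks.

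Without the 2 arrays that stood apart, the rise of Il1b on regular diet was 2.74 ± 0.35 (limma adjusted p = 0.0072), at least 2.59-fold, and without untreated replicate 3 it was 3.07 (limma adjusted p = 0.0504). Within slides, each of which was scanned as 1 unit, the difference between regular diet and untreated was 2.16 to 3.80 on 3 slides. The 2-week difference could be formed on 1 slide, where it was 1.99, and with slide as a fixed block it was 2.47 (limma adjusted p = 0.0837). With slide as a random block the 4-week difference was 1.97 and passed (limma adjusted p = 0.0296). The 2-week call was lost without any of the 3 arrays at 2 weeks, without untreated replicate 2 or 3, and without 4-week replicate 4, with differences of 2.38 to 2.96 and limma adjusted p of 0.0298 to 0.155 over the 10 arrays left out in turn. The 4-week level was 0.73 lower than the 2-week level on the log2 scale, with all 3 2-week arrays above 3 of the 4 4-week arrays, and that difference did not pass (95% interval -1.50 to 0.04, limma adjusted p = 0.471). The level on regular diet was 1.23 above that at 4 weeks of CPZ (interval 0.45 to 2.02, limma adjusted p = 0.0997), and 0.83 ± 0.33 above it without arrays 1 and 2 (limma adjusted p = 0.191).

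The Il1b probe was printed as 10 spots on each array, which gives a count of detection within an array. In untreated mice 0 of 29 usable spots lay well above background. At 2 weeks 30 of 30 did, at 4 weeks 23 of 40, and on regular diet 58 of 58. The 4-week arrays differed among themselves: replicate 3 had 10 of 10 spots above background and replicate 1 had 2 of 10. On arrays where the probe was detected, the SD between its spots was 0.12 in the median and at most 0.62 on the log2 scale.

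Tnf itself stayed at background in all 10 untreated and CPZ arrays. On its probe (A_51_P385099), also printed as 10 spots, 0 of 30 spots in untreated mice, 0 of 29 at 2 weeks and 0 of 40 at 4 weeks were well above background. On regular diet 19 of 58 spots were, and they came from array 1 (9 of 10 spots) and array 2 (10 of 10), with none on the other 4. The log2 levels there were -4.09 and -3.77, against -5.91, -5.25, -5.46 and -5.22 on arrays 3 to 6 and -6.27, -6.46 and -6.56 in untreated mice. A probe above background on 2 of 6 arrays did not pass the filter. No fold is given, since the bound against untreated was under 1.

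**Figure D2:**
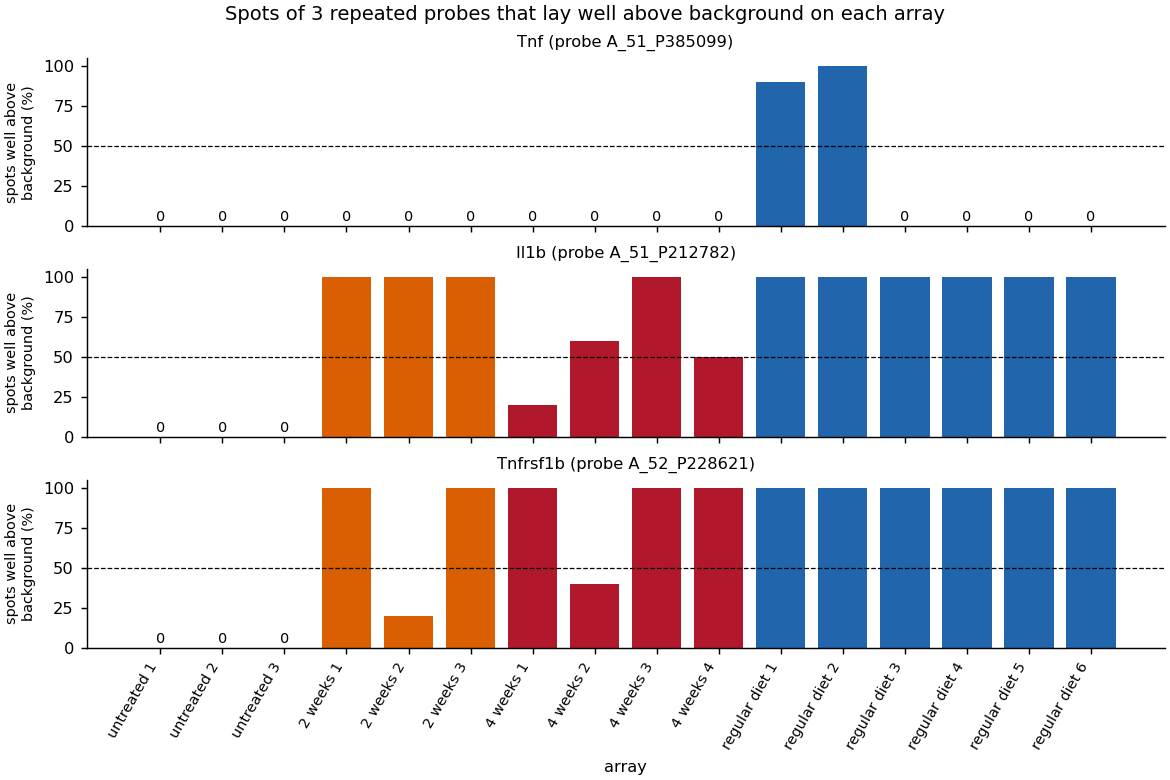
Percent of the usable spots of the Tnf, Il1b and Tnfrsf1b probes that lay well above background on each array (bars, coloured by group; the dashed line at 50% is the rule for calling a probe above background). Tnf passed on regular diet arrays 1 and 2 and nowhere else, Il1b on all arrays at 2 weeks and on regular diet, and Tnfrsf1b on all 6 regular diet arrays.

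Il1a, the cell-bound form of IL-1, and Il1rn, the antagonist, were not well above background on any untreated or CPZ array. Their probes were printed as 1 spot on each array. Of the 2 Il1a probes, A_51_P438283 was above background on regular diet arrays 1 and 2 only, and A_52_P100926 on no array. The levels of A_51_P438283 ran from -7.04 to -6.10 in untreated mice, -6.86 to -5.58 at 2 weeks and -6.49 to -4.77 at 4 weeks. On regular diet its median was -5.33 and its highest value -3.10. Of the 2 Il1rn probes, A_51_P307166 was above background on no array, and A_52_P431159 on regular diet array 2 only, at -3.77, with array 1 at -4.29 and arrays 3 to 6 at -7.01, -7.02, -6.04 and -6.93. No fold is given for either gene, since the bound was under 1.

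Tnfrsf1a, the receptor for soluble TNF, was bright on every array, with 10 spots whose SD was 0.06 in the median. Its log2 levels were 0.63, -0.03 and -0.28 in untreated mice, 2.22, 0.86 and 1.83 at 2 weeks, and 1.11, 1.06, 2.15 and 1.10 at 4 weeks. On regular diet arrays 1 and 2 it was at 2.87 and 3.11, and on arrays 3 to 6 at 1.66, 1.26, 1.40 and 1.15. All 13 arrays of mice that had received CPZ lay above all 3 untreated arrays, and none of the comparisons passed the test. Group by group, that order was seen for 8.33% of all tested probes at 2 weeks, 5.28% at 4 weeks and 4.89% on regular diet. Its share for all 13 arrays together was not counted. The differences from untreated were 1.54 ± 0.43 at 2 weeks (limma adjusted p = 0.195), 1.25 ± 0.40 at 4 weeks (0.275) and 1.80 ± 0.47 on regular diet (0.106). Without regular diet arrays 1 and 2 the last was 1.26 (limma adjusted p = 0.222). With slide as a fixed block the 4-week difference was 1.75 and passed (limma adjusted p = 0.0286), and within the 2 slides that held both groups it was 1.39 and 2.18. Array 3 at 4 weeks, at 2.15, stood apart from the other 3 of its group.

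Tnfrsf1b, the receptor that responds chiefly to membrane-bound TNF, was read by 2 probes of the same accession that did not behave alike. On A_52_P228621 the levels were -5.25, -5.86 and -5.38 in untreated mice, all at background. They were -3.80, -4.99 and -4.07 at 2 weeks, -3.28, -4.44, -2.99 and -3.42 at 4 weeks, and -1.26, -1.06, -3.22, -3.55, -3.49 and -3.77 on regular diet. No array of a later group overlapped the untreated arrays, an order that 4.89% of all tested probes had on regular diet. On regular diet this probe was 2.77 ± 0.59 higher than in untreated mice (limma adjusted p = 0.0451), at least 3.89-fold. Without regular diet arrays 1 and 2 the difference was 1.99 ± 0.35, at least 2.26-fold, and passed (limma adjusted p = 0.0305). Those arrays were picked after the levels were seen, and the SD of the group falls from 1.23 to 0.22 without them. That fit also kept the filter on dim probes, so it is not an independent check of the call. The probe entered the test through the regular diet group, the one group where every array was above background, and with no filter on dim probes it was not called (limma adjusted p = 0.0569). With slide as a fixed block it was not called either (limma adjusted p = 0.0552). The call was also lost without any untreated array (limma adjusted p of 0.131 to 0.218), without regular diet array 1, 2 or 3 (0.0546 to 0.0778), and without 2-week replicate 1 or 3 or 4-week replicate 1, 3 or 4, which leave the difference at 2.77 (0.0516 to 0.0711).

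At 2 and 4 weeks A_52_P228621 was above background on 2 of 3 and 3 of 4 arrays and so was not tested. The bounds against untreated were 1.32-fold at 2 weeks and 2.22-fold at 4 weeks. They are not strict, because each of these group means includes an array that was itself at background. If 1 spot above background is taken as enough, a rule chosen after seeing the data, the probe could be tested and the differences were 1.21 ± 0.42 (limma adjusted p = 0.333) and 1.97 ± 0.40 (0.0891). Replicate 2, the lowest 4-week array, was the one at background there, so the fit without it, in which the probe was tested and called, leaves out the array that kept it from being tested. Of its spots, 0 of 30 were above background in untreated mice, 21 of 29 at 2 weeks, 33 of 39 at 4 weeks and 59 of 59 on regular diet. The other probe, A_51_P278282, was printed as 1 spot on each array, against 10 for A_52_P228621. It was above background on all 16 arrays and stayed between -2.48 and -1.74, with means of -2.32 in untreated mice, -2.22 at 2 weeks, -2.20 at 4 weeks and -2.11 on regular diet. Its difference on regular diet was 0.21, with a 95% interval from -0.19 to 0.61, and 0.04 ± 0.17 without arrays 1 and 2. The transcript forms that each probe reads are not given in the files used here.

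**Figure D3:**
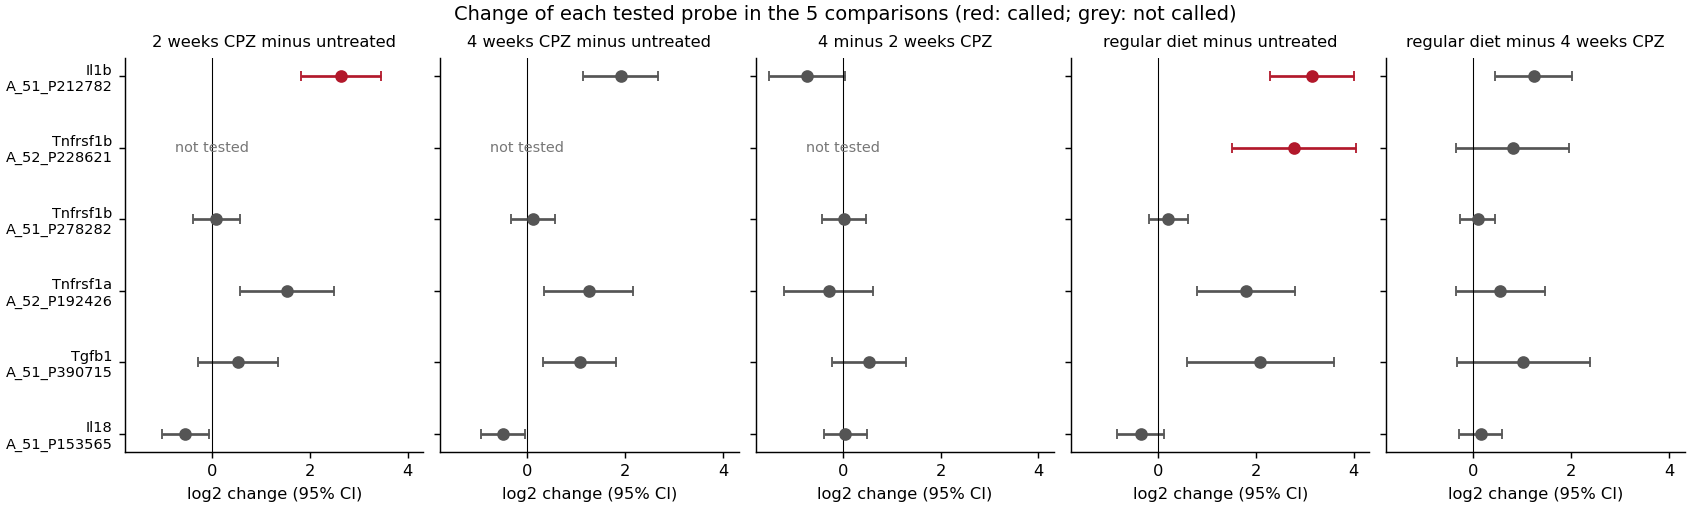
Log2 change of each tested member probe with its 95% interval in the 5 comparisons, from limma (red points were called and grey ones were not). Il1b was called at 2 weeks (2.64) and on regular diet (3.14), Tnfrsf1b probe A_52_P228621 on regular diet (2.77), and the intervals of the second Tnfrsf1b probe span 0 in all 5. Both called probes were at background on all untreated arrays, so the text gives their folds against untreated as bounds.

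Tgfb1, the ligand that signals through Smad proteins, was far higher on 2 arrays than on the rest, and no comparison passed the test. Its levels were -2.72, -3.36 and -3.62 in untreated mice, -2.39, -3.06 and -2.65 at 2 weeks and -2.43, -2.64, -1.43 and -2.14 at 4 weeks. On regular diet they were 0.73 and 1.01 on arrays 1 and 2 and -2.05, -2.46, -2.11 and -1.95 on arrays 3 to 6. The difference from untreated was 0.53 ± 0.36 at 2 weeks, 1.07 ± 0.34 at 4 weeks (limma adjusted p = 0.261) and 2.09 ± 0.70 on regular diet (0.269). The last was 1.09 without arrays 1 and 2 (limma adjusted p = 0.2). All 4-week and all regular diet arrays lay above all untreated arrays. That order was seen for 5.28% of all tested probes at 4 weeks and 4.89% on regular diet.

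Il18, the other cytokine that caspase-1 activates, had a mean below that of untreated mice in every group. Its levels were 0.89, 0.80 and 0.59 in untreated mice, 0.37, 0.05 and 0.21 at 2 weeks and -0.11, 0.54, 0.42 and 0.19 at 4 weeks. The 7 CPZ arrays lay below the 3 untreated arrays, an order that 9.02% of all tested probes had at 2 weeks and 4.74% at 4 weeks. The differences were -0.55 ± 0.21 at 2 weeks (limma adjusted p = 0.413) and -0.50 ± 0.20 at 4 weeks (0.416), and neither passed. On regular diet the values were -0.08, 0.15 and 0.06 on arrays 1 to 3 and 0.81, 0.72 and 0.81 on arrays 4 to 6, the latter within the untreated range, for a difference of -0.35 (interval -0.83 to 0.13), and -0.16 ± 0.22 without arrays 1 and 2.

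The summed levels of cell type markers moved with several members. The microglia and macrophage sum was 4.69 to 5.76 in untreated mice, 5.24 to 6.51 at 2 weeks, 5.99 to 7.19 at 4 weeks and 6.18 to 9.39 on regular diet, with 10 of 10 markers above background on all 16 arrays. The arrays where this sum was highest, regular diet 1 and 2, were also the highest of all 16 for the tested probes of Il1b, Tnfrsf1a, Tnfrsf1b and Tgfb1, and 4-week replicate 3 was the highest CPZ array for Tgfb1, the A_52_P228621 probe of Tnfrsf1b and this sum, but not for the other Tnfrsf1b probe (-2.46, where CPZ arrays reached -1.90). At 2 weeks replicate 2 had a sum of 5.24 and an Il1b level of -3.42, and untreated replicate 1 had a sum of 5.76 and an Il1b level of -5.39. The oligodendrocyte sum moved with Il18, being 9.73, 9.82 and 10.26 on regular diet arrays 4 to 6 and 6.61, 6.66 and 7.34 on arrays 1 to 3. The part of these markers in the members' levels was not tested.

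**Figure D4:**
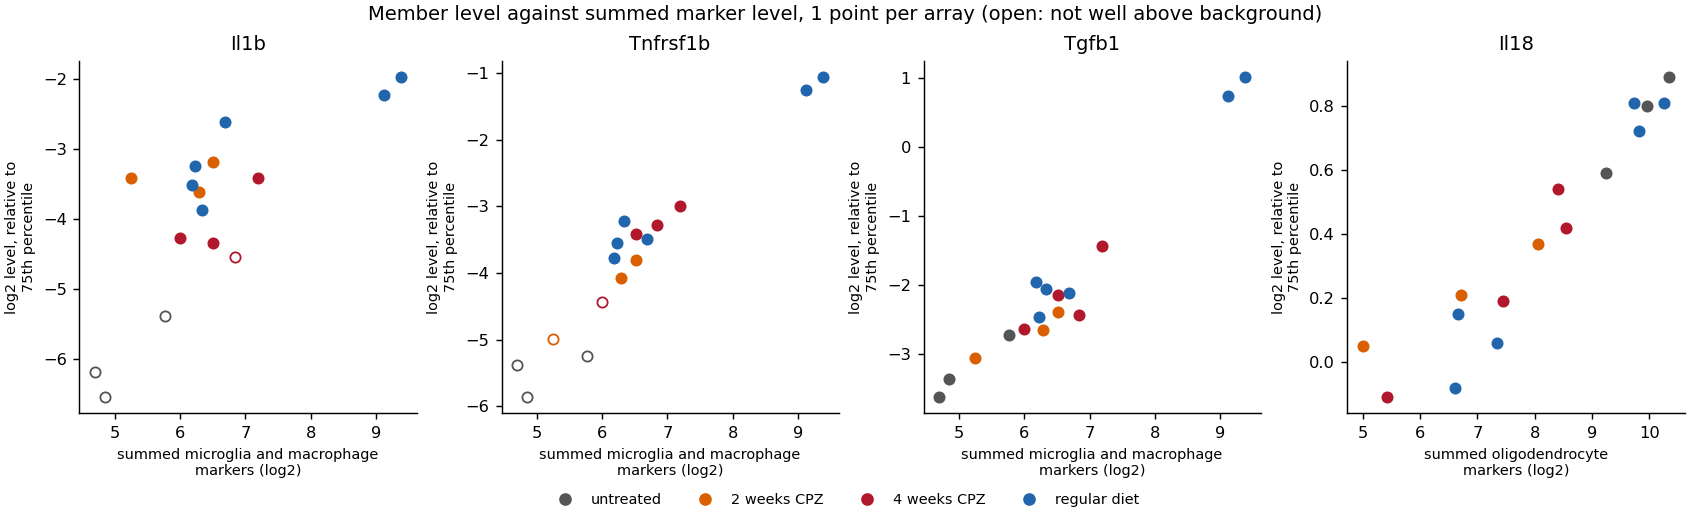
Level of Il1b, Tnfrsf1b (probe A_52_P228621) and Tgfb1 against the summed microglia and macrophage markers, and of Il18 against the summed oligodendrocyte markers, 1 point per array and log2 on all axes (open points are not well above background). Regular diet arrays 1 and 2 are the pair at a microglia sum of 9.12 and 9.39, and the Il18 values of -0.08 to 0.15 on regular diet go with oligodendrocyte sums of 6.61 to 7.34.

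On regular diet arrays 1 and 2 the summed neutrophil and blood monocyte markers were the lowest of all arrays, 2.69 and 2.82. Of 6 neutrophil and blood monocyte markers (S100a8, S100a9 and 4 others), only 1 was well above background on all 16 arrays. Of the others 2, Ngp and Ccr2, were above background on no array, so the sum rests on few genes. The summed level was 3.03 to 3.81 in untreated mice, 3.92 to 4.10 at 2 weeks, 3.17 to 3.89 at 4 weeks and 2.69 to 3.44 on regular diet. At 2 weeks this sum was higher than on any untreated array. Il1b was also higher there, and a link between them was not tested. The lymphocyte sum (6 of 6 markers on the array, 2 above background everywhere) lay between -1.47 and -0.81 over all 16 arrays. Astrocyte markers (7 of 7) ranged from 6.87 to 7.89, endothelial (5 of 5) from 3.51 to 4.63, neuronal (6 of 6) from 6.04 to 7.94, red blood cell (3 of 4) from 4.56 to 7.16 and choroid plexus markers (5 of 6), a tissue at the edge of the dissection, from -0.09 to 5.44.

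The genes whose levels were most like a member's across the 16 arrays also differed between members. These correlations are descriptions over 13934 genes, and the arrays share their groups. Tgfb1 was most like Hexa, Vsir and Csf1r (Pearson r of 0.989, 0.988 and 0.987, and 0.943, 0.941 and 0.927 over the 14 arrays without regular diet 1 and 2). Tnfrsf1b (A_52_P228621, the dimmer probe, shown because it was the one called) was most like Hvcn1, Mpeg1 and Csf2rb (0.985, 0.985 and 0.984, and 0.965, 0.963 and 0.968 over 14 arrays), of which Mpeg1 is a gene of macrophages. Il1b was most like Slamf8, Lag3 and Igsf6 (0.958, 0.943 and 0.938, and 0.947, 0.920 and 0.911 over 14 arrays). The brighter probe, A_51_P278282, was most like Trim14, Prss22 and Ncaph (0.935, 0.926 and 0.914, and 0.882, 0.846 and 0.831 over 14 arrays). Il18 was most like Gpr62, Ccdc13 and Fa2h (0.974 each, and 0.975, 0.973 and 0.970 over 14 arrays), Fa2h making the hydroxylated lipids of myelin. Tnfrsf1a was most like Trim47, Cmtm3 and Pros1 (0.979, 0.974 and 0.966, and 0.970, 0.973 and 0.936 over 14 arrays).

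Other genes of these pathways were listed by role: 73 genes, of which 70 were on the array and 59 were tested in each comparison. No pathway gene passed at 2 weeks, 1 rose at 4 weeks and 3 rose on regular diet, and none fell, where 0.193, 0.164 and 0.799% of all tested probes were called and 3 of the 222 probes called on regular diet were lower. The median log2 change over the 59 genes was 0.36 at 2 weeks, 0.33 at 4 weeks and 0.47 on regular diet against untreated, where the median over all tested probes was 0.03, -0.03 and -0.03. Of the 59 genes, 45, 42 and 45 had a change above 0, against 53.8, 46.5 and 47.2% of all probes. Without regular diet arrays 1 and 2 the regular diet median was 0.26, with 43 of the 59 above 0. The microglia and macrophage sum given above was also higher in these groups, with medians of 4.84 in untreated mice, 6.29 at 2 weeks, 6.68 at 4 weeks and 6.51 on regular diet, and its part in the medians of the pathway genes was not tested.

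Processing and release, the inflammasome and latency genes, was the role with the highest median on regular diet, 1.87 over 9 tested genes, and 1.00 without arrays 1 and 2, on which the microglia and macrophage sum was 9.12 and 9.39 against 6.18 to 6.68 on the other 4 and 4.69 to 5.76 in untreated mice. The part of these markers in the role's median was not tested. Casp4, the caspase of the non-canonical inflammasome, was at -3.33, -3.02 and -3.46 in untreated mice and at -1.27, -1.94, -1.46 and -1.43 at 4 weeks, a rise of 1.75 ± 0.25 (limma adjusted p = 0.0467). On regular diet it was at 0.98 and 1.11 on arrays 1 and 2 and -1.49 to -1.16 on the others, a rise of 2.75 ± 0.54 (limma adjusted p = 0.0293), and of 1.96 ± 0.22 without arrays 1 and 2 (limma adjusted p = 0.00445). The 4-week call was lost without any untreated array, 2-week replicate 1 or 3, or 4-week replicate 1, 3 or 4 (limma adjusted p of 0.0656 to 0.195), with quantile normalization (0.0526) and with no filter on dim probes (0.0591), and the regular diet call without any untreated array (0.119 to 0.175). At 2 weeks it was 1.61 ± 0.27 higher and did not pass (limma adjusted p = 0.0598). Pycard, the adaptor that joins inflammasome sensors to caspase-1, had the largest 4-week difference of the role, 2.33 ± 0.50 on its brighter probe (limma adjusted p = 0.105) and 1.59 on the other. With slide as a fixed block both probes passed, at 3.03 and 2.06 (limma adjusted p of 0.0167 and 0.0238).

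Among target genes, Ccl2, a chemokine that draws monocytes, was at background in untreated mice and above it on every other array. Its levels were -5.93, -5.13 and -5.36 in untreated mice, -0.63, -2.73 and 0.26 at 2 weeks, -2.19, -3.91, -1.81 and -2.92 at 4 weeks and -2.87 to -0.59 on regular diet. The regular diet rise was at least 6.97-fold (3.59 ± 0.65, limma adjusted p = 0.0184), or 4.75-fold without arrays 1 and 2, and the bounds at 2 and 4 weeks were at least 12.54-fold and 3.93-fold with limma adjusted p of 0.0624 and 0.154. With slide as a fixed block the 4-week difference of Ccl2 passed (limma adjusted p = 0.0272). The limma adjusted p of the regular diet rise was 0.054 without regular diet arrays 1 and 2 and 0.0849 to 0.11 without any 1 untreated array. Birc3, an inhibitor of apoptosis that NF-κB induces, rose by 1.19 ± 0.25 on regular diet (limma adjusted p = 0.0455), and the difference was 0.89 without the 2 arrays (limma adjusted p = 0.0617). The Birc3 call was lost without any untreated array, 2-week replicate 1 or 3, any 4-week array, or regular diet array 1, 2 or 4 (limma adjusted p of 0.0517 to 0.219), and with slide as a fixed block (0.0562). The role had 11 tested genes of 15, with medians of 0.61, 0.48 and 0.95 against untreated at 2 weeks, 4 weeks and on regular diet, the last being 0.57 without arrays 1 and 2.

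The remaining roles had no called gene. Of 4 tested ligands, Il33, an alarmin stored in nuclei, had the largest 4-week difference, -2.57 ± 0.70 (limma adjusted p = 0.186). Its levels were 3.70, 3.12 and 2.67 in untreated mice, 0.91, -0.37 and -1.48 at 2 weeks and -1.02, 1.80, 0.72 and 0.86 at 4 weeks. All CPZ arrays lay below all untreated arrays, an order that 9.02% of all tested probes had at 2 weeks and 4.74% at 4 weeks. On regular diet Il33 was between -1.85 and -0.30 on arrays 1 to 3 and between 2.28 and 3.40 on arrays 4 to 6. Without arrays 1 and 2 it differed from untreated by -1.09 ± 0.87 (limma adjusted p = 0.895). Of 9 tested receptors, Il1r1, the signalling receptor of IL-1, had the largest, 1.78 ± 0.76 (limma adjusted p = 0.469), but 1 untreated array was at background (-6.56, against -4.13 and -3.29), and without it the difference was 0.83. Of 7 inhibitors, Smad7, which blocks TGF-β signalling, differed by -1.37 ± 0.30 (limma adjusted p = 0.107). The 19 signal transduction genes had a median of 0.04 at 4 weeks, and the largest difference was that of Traf6, -0.78 ± 0.46 (limma adjusted p = 0.665).

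**Figure D5:**
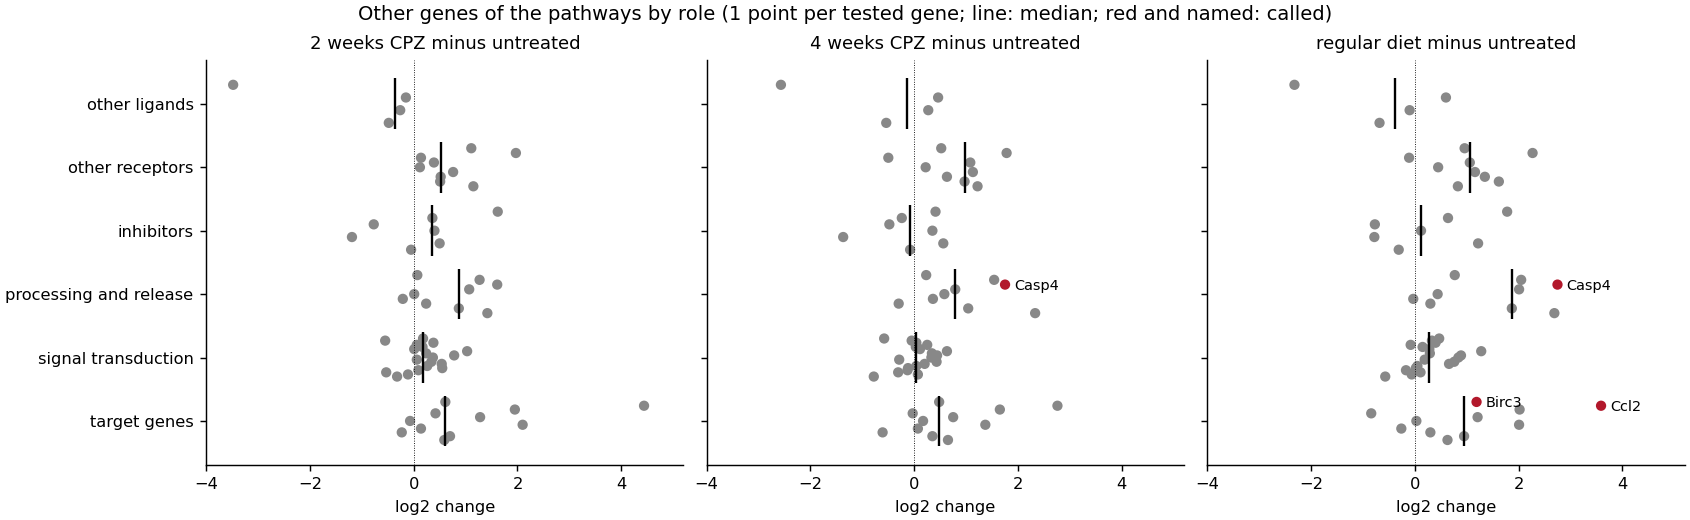
Log2 change against untreated of the tested pathway genes, 1 point per gene by its brightest tested probe, by role and for 3 comparisons (vertical lines are medians, and called genes are red and named). Casp4 was called at 4 weeks and on regular diet, Ccl2 and Birc3 on regular diet, and the role with the highest median on regular diet was processing and release (1.87, and 1.00 without regular diet arrays 1 and 2).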

How the data were processed

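The authors deposited, for each of the 16 arrays, spot intensity from Agilent Feature Extraction 11.0.1.1, background-subtracted and detrended but not scaled between arrays. They also deposited a table of log2 values, scaled to the 75th percentile and set to the median of the untreated arrays (100.0% of probes have an untreated median of 0). Arrays were assigned to samples through that table's columns, each matched to 1 array over 21976 probes (lowest best correlation 1.000, highest next best 0.890). Control and outlier spots were left out, spots of a probe were averaged, and log2 minus the array's 75th percentile was taken with no pseudocount. Between 57.3 and 72.2% of probes per array were well above background. The number of arrays limits the precision. Untreated, 2-week and 4-week arrays (27505 probes) and all 16 arrays (27785 probes) were fitted with limma 3.58.1 in R 4.3.3, checked on simulated data, with Benjamini-Hochberg adjustment over all probes, and 95% intervals are unadjusted. Lower bounds compare the bright group's mean with the dim group's, in which each array counts at its dimmest detected probe or at the probe itself, whichever is brighter. They take no account of the spread between arrays and are not strict. Undetected probes can lie above an array's dimmest detected probe, and an undetected array of the bright group counts at its own level. Named were all member probes, pathway genes called in any comparison and, per role, the gene with the largest 4-week change. Up to 2 markers of each list and the 3 genes most like each member were also named, and, outside this rule and after their values were seen, Ngp and Ccr2, the neutrophil and blood monocyte markers above background on no array. Accessions gave 66.7% of probes a gene name (RefSeq, GRCm38.p6). The members and lists were chosen with earlier results of these data known. The normexp alternative used median spot signals, because the mean was not in the files used here, and an added constant (offset) of 50. Replicates are as numbered by the labels, and where they are not separate mice the p-values cover technical spread only.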

Additional observations from a re-analysis of the deposited data

Results flagged for a closer look

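Groups of 4 and 6 arrays were searched for an array set apart from the rest of its group, for each of the 6 tested member probes (12 groups). 1 was found: Tnfrsf1a on 4-week array 3, at 2.15 against 1.06 to 1.11 on the other 3. The rule is set so that chance alone marks about 1 in 20 groups, a rate that was not measured on these arrays. The same array held the highest Tgfb1 and Tnfrsf1b (A_52_P228621) levels of the CPZ arrays, -1.43 and -2.99.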

How the results depend on the processing

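The Il1b call on regular diet was kept in 27 of 31 alternatives the Il1b call at 2 weeks in 8 of 25 and the Tnfrsf1b (A_52_P228621) call on regular diet in 11 of 31. Among pathway genes, the Casp4 call was kept in 10 of 26 at 4 weeks and 24 of 32 on regular diet, Ccl2 in 22 of 31 and Birc3 in 9 of 32. At 4 weeks Casp4 had an adjusted p of 0.327 with all 4 groups in 1 limma fit, 0.137 with the methods' test and 0.269 with normexp (change of 0.54). With slide as a random block Pycard (0.0289 and 0.0339) and Ccl2 (0.0464) passed at 4 weeks. Normexp, which adds a constant of 50 to the signals, left the Il1b changes at 0.02 (2 weeks) and 0.05 (regular diet) and that of Tnfrsf1b at 0.12. The Il1b signals ran only from 2.0 in untreated mice to 58.5 on regular diet. For such dim probes normexp cannot tell an absent change from one flattened by the constant. The floor on dim signals left the same 3 changes at 1.27, 1.78 and 1.96. At 2 weeks the number of members called went from 1 to 0 with all 4 groups in 1 fit and only the 2 groups compared. It was 0 with arrays as recorded, a floor on dim signals, median scaling, normexp, the processed table, quantile normalization and slide as a fixed block. With a filter on every array it was 0 because the Il1b probe, at background on all untreated arrays, was not tested. It ranged from 0 to 1 with 1 array left out. At 4 weeks it went from 0 to 1 with slide as a fixed block (Tnfrsf1a), slide as a random block (Il1b) and the methods' test (Il1b; all 4 groups at once, then pairs), and ranged from 0 to 1 with 1 array left out. On regular diet it went from 2 to 0 with arrays as recorded, the floor and normexp. It went to 1 with median scaling, no filter, 2 groups, quantile, slide as a fixed block and the methods' test. With the filter on every array it was 0 because the Il1b probe and A_52_P228621, at background on all untreated arrays, were not tested. It ranged from 0 to 2 with 1 array left out. Against 4 weeks of CPZ it was 1 with the methods' test (Il1b), and 0 with median scaling and quantile normalization, where 1274 and 323 probes were called in place of 1. Replicate numbers did not pair the arrays (4 of 19 correlations over 0.1, from -0.785 to 0.323). With the replicate block 0 members were called at 2 weeks and 2 on regular diet, against 0 and 4 for the same arrays without the block.

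Directions turned as follows. Arrays as recorded gave Tnfrsf1a -0.04, -0.51 and -0.12 (2 weeks, 4 weeks, regular diet), Il1b -0.26 at 4 weeks, Il18 0.19, 0.08, -0.12 and -0.46 (2 weeks, 4 weeks, 4 against 2 weeks, regular diet against 4 weeks), Tgfb1 -0.07 (4 against 2 weeks), Il33 0.51, Smad7 0.18 and Ccl2 -1.39 at 4 weeks, and Ccl2 -0.33 on regular diet. Normexp, with its constant of 50 that flattens dim probes, gave Il1b -0.03 and Birc3 -0.05 at 4 weeks and Tgfb1 -0.08 at 2 weeks. The flat Tnfrsf1b probe A_51_P278282 gave -0.15, -0.09, -0.17 and -0.08 with normexp (2 weeks, 4 weeks, regular diet, regular diet against 4 weeks), -0.02 and -0.16 with quantile and -0.07 and -0.21 with median scaling (2 weeks, regular diet against 4 weeks), -0.06 as recorded at 2 weeks, -0.05 with and without the replicate block (4 against 2 weeks) and -0.08 without regular diet arrays 1 and 2. With 1 array left out it ran from -0.08 to 0.12 (4 against 2 weeks) and from -0.00 to 0.19 (regular diet against 4 weeks). Between 4 and 2 weeks Tnfrsf1a was 0.28 with slide as a fixed block and -0.67 to 0.01 with 1 array left out, and Il18 ran from -0.04 to 0.18. Il18 on regular diet against 4 weeks was -0.15 with median scaling and -0.24 with and without the block. The causes were not tested.

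Median scaling moved the median change of all probes to -0.208 on regular diet and -0.13 at 2 weeks, and split the calls at 2 weeks 15 higher to 14 lower, where 19 to 34 were called; normexp gave 16 to 80. The split was 27 to 0 with all 4 groups in 1 fit, 19 to 0 with the methods' test, 70 to 39 with slide as a fixed block, 142 to 169 with it as a random block and 44 to 8 without 2-week replicate 2. On regular diet 219 to 3 became 106 to 57 with the replicate block and 645 to 343 for the same arrays without it. Dim signal limits Tnf, Il1a and Il1rn, which did not pass the filter and were not called without it.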
